A study of Mus musculus with 6 samples.

Results

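The nuclear genes for subunits of the oxidative phosphorylation machinery were followed from normal liver to Hras-driven liver tumour in mice of both sexes. Members were taken by gene symbol: Nduf genes of the a, b, c, s and v series, Sdha to Sdhd, Uqcr genes and Cyc1, Cox4 to Cox8 genes, and Atp5 genes. Hyphenated symbols and the assembly factors named Ndufaf were left out. A member also needed 1 FPKM or more in 2 or more of the 6 libraries (FPKM scales fragments by gene model length and by the library's total). Of 86 symbols that matched, 79 passed, out of 34745 genes in the deposited table. They comprise 36 genes of complex I, 4 of complex II, 9 of complex III, 14 of complex IV and 16 of complex V.

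Each of the 6 libraries came from liver messenger RNA of untreated mice. Normal liver was from wild-type C57BL/6 mice, and precancerous liver and hepatocellular tumour were from mice carrying the Hras12V transgene, an activated Ras oncogene. Males were aged 9 months and females 15 months, and the effects of sex and of age cannot be told apart. Genotype and tissue also change together, since the transgenic mice contributed no normal liver and the wild-type mice no tumour. The sample titles name a strain for the wild-type mice alone, and the part of strain in the differences was not tested. Every combination of sex and tissue was 1 library. The labels leave unsaid if a library was 1 mouse or a pool, if the tumour and the precancerous tissue were from the same mouse, and which promoter drives the transgene. Tissue comparisons therefore used the sexes as replicates, with sex as a term, and p-values measure only the spread between these libraries.

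Oxidative phosphorylation takes place in the inner mitochondrial membrane. Complexes I and II pass electrons from NADH and succinate to coenzyme Q, complex III passes them to cytochrome c, and complex IV passes them to oxygen. Complexes I, III and IV pump protons as they do so, and complex V, the ATP synthase, uses the returning protons to make ATP. Most subunits are encoded in the nucleus, a few of the most hydrophobic ones in mitochondrial DNA, and all of complex II is nuclear. Hepatocytes are rich in mitochondria and spend much of this ATP on urea, glucose and lipid metabolism.

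Promoters of such genes are known for sites of nuclear respiratory factor 1, so its core motif was looked up in the RefSeq promoter sequences of GRCm38.p6, which run from 250 bases before to 50 bases after each gene's start. A promoter was found for 66 of the 79 members. This core, which is shown in capitals in the stretches printed here and allows any base at the sixth position, was searched on both strands and was present in 16 of the 66 (24.2%). Over all 27025 genes with a promoter sequence, each counted once, it was present in 5.19%. Over the 8505 of them tested here it was present in 982 (11.55%). Examples are printed for members whose values are described in the following paragraphs, read 5′ to 3′ along the gene's strand. They belong to the flavoprotein of complex II, its membrane anchor, an ATP synthase stalk subunit, a small complex I subunit and a complex IV subunit.
Sdha, chr13:74350309-74350358, minus strand: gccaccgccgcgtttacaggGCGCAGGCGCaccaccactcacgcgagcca
Sdhd, chr9:50603899-50603948, minus strand: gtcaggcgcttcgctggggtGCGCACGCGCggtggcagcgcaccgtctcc
Atp5h, chr11:115420031-115420080, minus strand: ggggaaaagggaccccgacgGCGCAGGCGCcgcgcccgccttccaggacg
Ndufs5, chr4:123718255-123718304, minus strand: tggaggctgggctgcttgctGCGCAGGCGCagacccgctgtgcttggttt
Cox6a1, chr5:115349091-115349140, minus strand: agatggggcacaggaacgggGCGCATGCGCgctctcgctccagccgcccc

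In the stretches printed, Sdha, Atp5h and Ndufs5 hold the same form of the core, and Sdhd and Cox6a1 each hold another. Cox6a1 has a further match, at chr5:115349046-115349095, in the form that Sdha holds. The YY1 motif was present in 6 of the 66 member promoters (9.09%), in 0.995% of all promoters and in 2.61% of those of tested genes. The ERR-alpha motif CAAGGTCA was present in 4 member promoters (6.06%), in 1.76% of all promoters and in 1.31% of those of tested genes. The ETS motif CCGGAAGT was present in 5 (7.58%), in 4.31% of all promoters and in 9.35% of those of tested genes, a share above that of the members. A match describes the letters only and says nothing of binding.

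Total counts ranged from 5996585 to 7347064 in the male libraries and from 15047022 to 18434508 in the female ones. All 6 libraries carried strong hepatocyte transcripts: 11 hepatocyte markers summed to between 39960 and 76830 FPKM, and albumin alone took 5.74% to 13.99% of counts, most in the tumours. Of these 11 markers, 4 were lower and 0 higher in tumour than in normal liver (edgeR), among them the urea cycle enzyme Cps1. In the same comparison 5 of 12 macrophage markers, 4 of 10 endothelial markers and 2 of 12 stellate and matrix markers were lower. Of all tested genes 16.1% were lower and 17.3% higher. Higher in tumour were 7 stellate and matrix, 2 endothelial and 3 of 4 tested cholangiocyte markers, and the adipocyte list had 1 tested gene, Cidea, which was higher. None of 5 red cell, 4 T and NK cell and 1 B cell markers tested was called. Muscle markers were near 0, with Ckm and Myh4 at 0 counts in every library. The part of these cell types in the results below was not tested, and in bulk tissue fewer cells of a type and less RNA per cell cannot be told apart.

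The 79 genes together took a smaller share of each library with each step from normal liver to tumour. In males the share was 0.915% of counts in normal liver, 0.853% in precancerous tissue and 0.596% in tumour. In females it was 0.821%, 0.637% and 0.474%. The median member stood at 37.9, 34.6 and 26.3 FPKM in the male libraries and at 26.1, 20.6 and 17.9 FPKM in the female libraries. Both sexes thus showed the same order of tissues. In males most of the decrease in share lay between precancerous tissue and tumour, and in females it was spread over both steps.

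**Figure D1:**
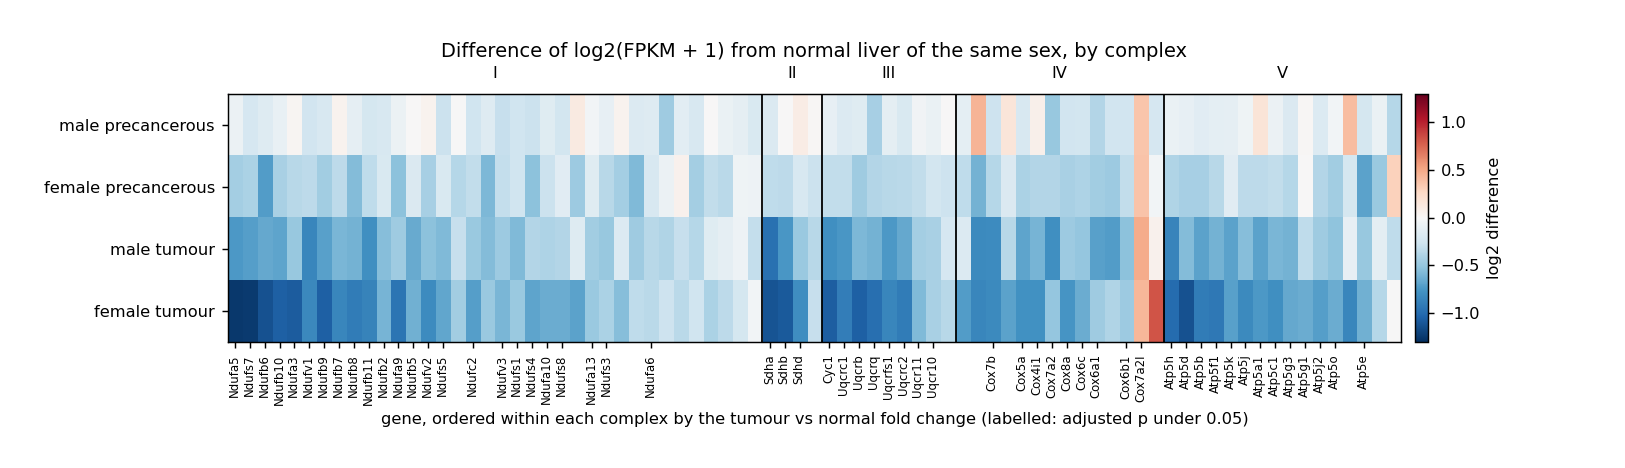
Difference of log2(FPKM + 1) from normal liver of the same sex for the 79 genes (columns, grouped by complex I to V) in the 4 transgenic libraries (rows); blue is lower, red is higher, and the genes called between tumour and normal liver are labelled. The tumour rows are blue for 77 genes in each sex, and Cox7a2l is red in all 4 rows.

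Tumour had lower levels than normal liver for most members of every complex. With edgeR's quasi-likelihood test and Benjamini-Hochberg adjustment over the 11435 genes tested, 56 of 79 members were lower and 1 was higher, beside 16.1% of all tested genes lower and 17.3% higher. The median log2 fold change was -0.69 over members, or 0.621 times the normal level, and 0.00 over all tested genes. Lower calls numbered 24 of 36 in complex I, 3 of 4 in complex II, 8 of 9 in complex III, 8 of 14 in complex IV and 13 of 16 in complex V. The medians by complex were -0.63, -0.84, -0.84, -0.67 and -0.71. The count of lower calls was 15 without the female normal library, 23 without the female tumour, 30 without the male precancerous and 36 without the female precancerous library, and 0 when sex was left out of the model.

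In both sexes 77 of the 79 genes were lower in tumour than in normal liver, the exceptions being Cox7a2l and Ndufa4l2. Over all tested genes this share was 34.8%. Levels stepped down from normal through precancerous tissue to tumour in both sexes for 48 members, beside 12.6% of tested genes. These 48 were 21 of complex I, 1 of complex II, 8 of complex III, 8 of complex IV and 10 of complex V. The opposite steps, up at each stage in both sexes, were taken by Cox7a2l alone among members, beside 14.5% of tested genes. In single library pairs the median member difference on the log2(FPKM + 1) scale between tumour and normal liver was -0.53 in males and -0.70 in females. A reduction of at least 2-fold on that scale was seen for 0 members in males and 12 in females, where 5.97% and 6.97% of tested genes reached it. The difference between the sexes was not tested.

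**Figure D2:**
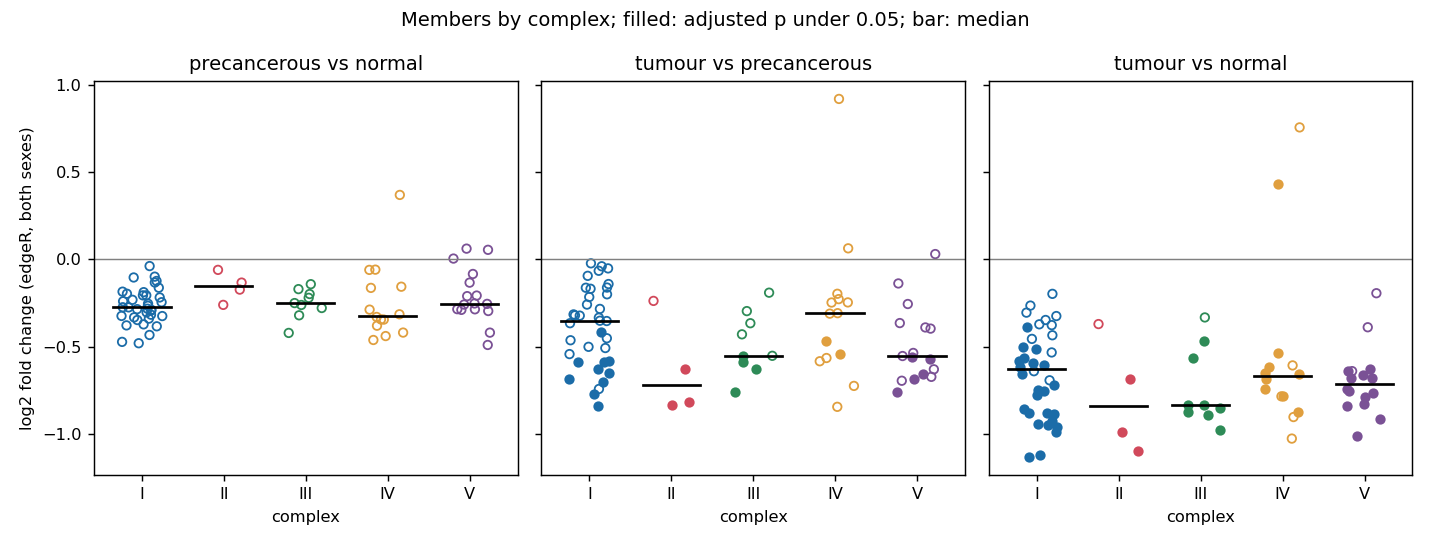
Log2 fold change of each member in the 3 tissue comparisons (panels), by complex (x axis), from edgeR over both sexes; filled points had an adjusted p under 0.05 and bars are medians. No point is filled for precancerous against normal liver, 24 are filled for tumour against precancerous tissue and 57 for tumour against normal liver.

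Complex II, succinate dehydrogenase, is also an enzyme of the tricarboxylic acid cycle. Sdha, its flavoprotein with the succinate site, was at 101, 88.5 and 50.9 FPKM in the male libraries, in the order normal, precancerous and tumour, and at 85.9, 68.2 and 38.8 FPKM in the female libraries. Both tumour libraries were below all 4 others, and tumour was lower than normal liver by a log2 fold change of -1.10 (SE 0.15, edgeR adjusted p = 0.00682) and lower than precancerous tissue by -0.84 (adjusted p = 0.0188). Sdhb, the iron-sulfur subunit that carries electrons onward, was at 58.5, 58.9 and 34.1 FPKM in males and at 50.1, 39.4 and 23.0 FPKM in females. Its log2 fold change was -0.99 against normal liver (SE 0.15, adjusted p = 0.00837) and -0.82 against precancerous tissue (adjusted p = 0.0189). In males the fall of Sdhb lay wholly between precancerous tissue and tumour, while in females it was spread over both steps.

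The membrane anchors of complex II, which bind coenzyme Q, had smaller fold changes. Sdhd was at 144, 154 and 103 FPKM in males and at 142, 123 and 80.7 FPKM in females, a log2 fold change of -0.69 between tumour and normal liver (SE 0.15, adjusted p = 0.0256). Sdhc was at 31.5, 31.9 and 24.3 FPKM in males and at 31.7, 25.9 and 25.6 FPKM in females, and its change of -0.37 did not pass (SE 0.15, adjusted p = 0.124). In females Sdhc had nearly the same level in tumour as in precancerous tissue. Whether Sdhc differed from Sdha in its response was not tested.

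Complex I has a catalytic core and a shell of accessory subunits that assemble and stabilise it. Of the 7 core genes in the nucleus 6 were lower in tumour than in normal liver, and of the 29 accessory genes 18. Ndufv1, which binds the NADH-oxidising flavin, was at 18.9, 15.7 and 10.03 FPKM in males and at 16.0, 12.4 and 8.51 FPKM in females (-0.94, SE 0.11, adjusted p = 0.00456). Ndufs7, a core iron-sulfur subunit near the coenzyme Q site, was at 13.0, 11.04 and 7.48 FPKM in males and at 20.1, 14.9 and 7.92 FPKM in females (-1.12, SE 0.16, adjusted p = 0.00647). For both genes each tumour library lay below all 4 of the others.

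Among accessory subunits the change was greatest for Ndufa5, at 26.1, 24.7 and 15.2 FPKM in males and at 13.0, 9.33 and 4.89 FPKM in females (-1.13, SE 0.18, adjusted p = 0.00967). Ndufb11, a membrane-arm subunit, was at 105, 89.2 and 60.1 FPKM in males and at 58.7, 46.3 and 31.7 FPKM in females (-0.88, SE 0.11, adjusted p = 0.00456). Ndufb9, another membrane-arm subunit, was at 214, 185 and 131 FPKM in males and at 116, 84.1 and 54.7 FPKM in females (-0.93, SE 0.14, adjusted p = 0.00763). In these 3 genes each sex stepped down at each stage, from a higher level in males. Ndufs5, whose promoter stretch is printed above, fell by 0.72 on the log2 scale (adjusted p = 0.0138). At the other end, Ndufa8 was at 76.5, 66.6 and 61.7 FPKM in males and at 65.3, 62.5 and 63.9 FPKM in females (-0.20, SE 0.12, adjusted p = 0.258). Ndufab1, the mitochondrial acyl carrier protein, which also serves fatty acid synthesis, had a change of -0.27 (adjusted p = 0.195). Ndufb4, close to the FPKM threshold at 1.14 to 1.97 FPKM, had a change of -0.69 with an SE of 0.31 (adjusted p = 0.146).

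In complex III 8 of the 9 genes were lower in tumour than in normal liver. Cyc1, the cytochrome c1 haem subunit, was at 109, 101 and 62.6 FPKM in males and at 125, 100.1 and 59.1 FPKM in females. It was lower in tumour than in normal liver by -0.98 (SE 0.13, adjusted p = 0.00621) and than in precancerous tissue by -0.76 (adjusted p = 0.0165). Uqcrfs1, the Rieske iron-sulfur protein, was at 125, 114 and 74.2 FPKM in males and at 123, 95.1 and 67.6 FPKM in females (-0.84, SE 0.14, adjusted p = 0.0106). Both nuclear redox genes of the complex had their tumour libraries below all others. The large core proteins Uqcrc1 and Uqcrc2 had changes of -0.89 (adjusted p = 0.00871) and -0.83 (adjusted p = 0.0123). The coenzyme Q-binding subunits Uqcrb and Uqcrq had changes of -0.87 (adjusted p = 0.0123) and -0.85 (adjusted p = 0.0107). Uqcrh, the hinge protein, was the gene that did not pass, at 56.9, 56.9 and 48.7 FPKM in males and at 23.9, 19.6 and 18.4 FPKM in females (-0.33, SE 0.13, adjusted p = 0.108).

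In complex IV, whose catalytic subunits are mitochondrial, 8 of 11 common or liver-type nuclear subunits were lower in tumour than in normal liver. Cox5a was at 198, 171 and 122 FPKM in males and at 82.1, 61.4 and 47.0 FPKM in females (-0.78, SE 0.12, adjusted p = 0.00866). Cox7b was at 77.0, 63.6 and 43.1 FPKM in males and at 51.9, 39.8 and 28.8 FPKM in females (-0.87, SE 0.12, adjusted p = 0.00567). Both genes stepped down at each stage in each sex. Cox6a1, the non-muscle form, was at 118, 90.4 and 72.2 FPKM in males and at 135, 98.6 and 97.5 FPKM in females (-0.62, SE 0.15, adjusted p = 0.0291). Cox4i1, the usual form of the largest nuclear subunit, fell by 0.74 on the log2 scale (adjusted p = 0.0287), Cox7a2 by 0.69 (adjusted p = 0.0133), Cox8a by 0.66 (adjusted p = 0.0162) and Cox6b1 by 0.53 (adjusted p = 0.0241).

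The muscle, lung and testis forms of these subunits were almost silent. Cox8c and Cox7b2 had 0 counts in every library and Cox8b had 1 count in all. Cox6a2 had at most 2 counts in a library, Cox4i2 at most 6 and Cox6b2 at most 10. Cox7a1, the heart and muscle form, lay just above the threshold, at 1.83, 1.59 and 1.496 FPKM in males and at 1.40, 0.913 and 0.447 FPKM in females. Its change of -1.03 carried an SE of 0.59 and did not pass (adjusted p = 0.233). Atp5g2, a c-ring gene of complex V, lay just below the threshold at 0.395 to 0.912 FPKM. The muscle markers near 0 in the same libraries were given above.

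Cox7a2l and Ndufa4l2 went against the rest of complex IV. Cox7a2l, a Cox7a-related protein, was at 49.9, 64.4 and 70.0 FPKM in males and at 49.0, 63.5 and 66.5 FPKM in females. The male and female values were close at every stage, and the rise between normal liver and tumour was 0.43 (SE 0.10, adjusted p = 0.0301). This call was lost whenever 1 of the 6 libraries was left out, as were the lower calls of Atp5a1, Cox6b1, Ndufa6, Ndufs3 and Uqcr10. The call of Cox7a2l was also lost without the FPKM filter, and the direction of all 6 genes held. Ndufa4, which was first assigned to complex I and is now known as a complex IV subunit, was at 54.4, 74.3 and 30.1 FPKM in males and at 31.2, 20.04 and 16.8 FPKM in females (-0.90, SE 0.31, adjusted p = 0.0783). Its hypoxia-inducible relative Ndufa4l2 was at 1.74, 1.36 and 1.84 FPKM in males and at 1.65, 1.59 and 3.67 FPKM in females (0.76, SE 0.37, adjusted p = 0.176). Only the female tumour stood out for Ndufa4l2.

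**Figure D3:**
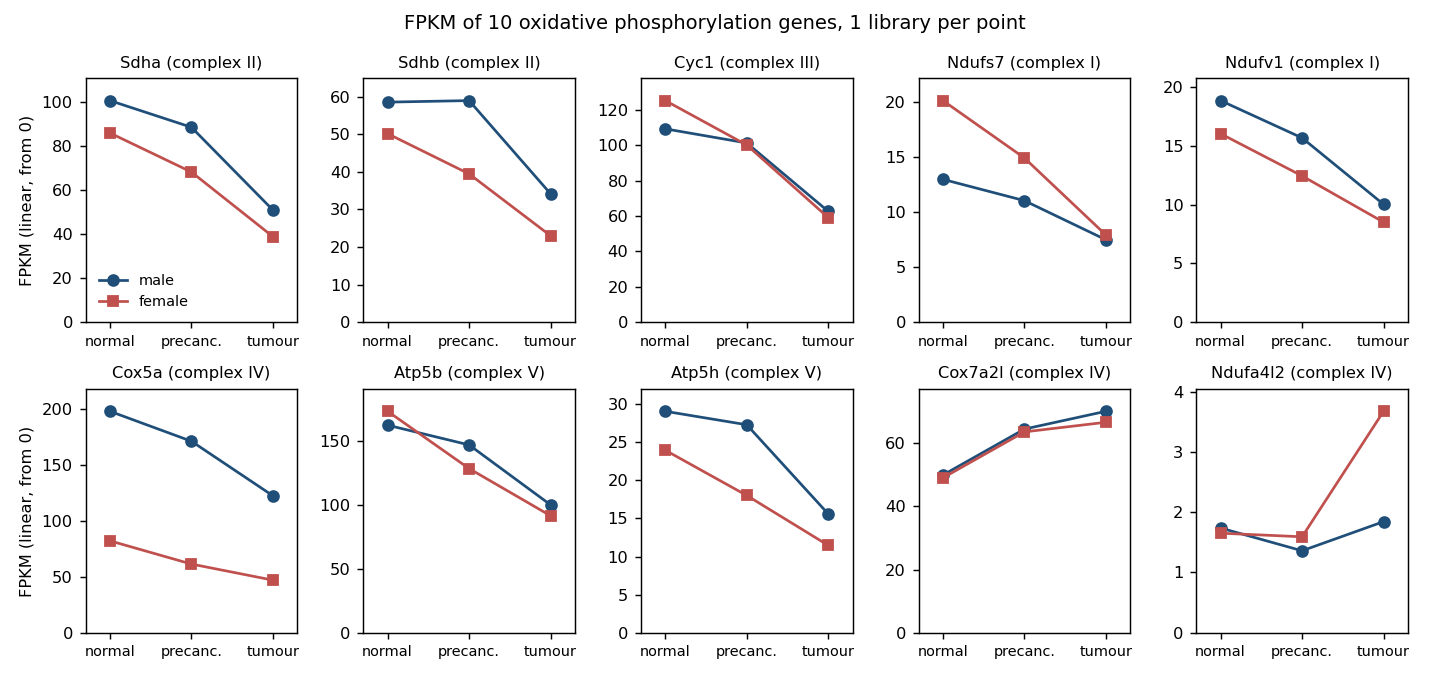
FPKM (y axis, linear from 0) of 10 members in normal, precancerous and tumour liver (x axis), 1 library per point, males as circles and females as squares. Of the 10, 8 fall to their lowest level in tumour in both sexes, Cox7a2l is highest in tumour (70.0 FPKM, males; 66.5 FPKM, females), and Ndufa4l2 is high in the female tumour alone.

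Calls in the ATP synthase covered its catalytic head, stalk and rotor. All 5 genes of the F1 head and central stalk were lower in tumour than in normal liver, as were both c-ring genes and all 4 peripheral stalk genes. Atp5b, the catalytic beta subunit, was at 163, 147 and 100.3 FPKM in males and at 174, 129 and 91.8 FPKM in females (-0.84, SE 0.18, adjusted p = 0.0206). Atp5a1, the alpha subunit, was at 141, 158 and 86.9 FPKM in males and at 172, 135 and 102 FPKM in females (-0.76, SE 0.21, adjusted p = 0.0445). Both genes had their lowest level of each sex in the tumour, and Atp5a1 was at its male maximum in precancerous tissue. Atp5h, subunit d of the peripheral stalk, was at 29.0, 27.3 and 15.6 FPKM in males and at 23.9, 18.0 and 11.5 FPKM in females (-1.02, SE 0.13, adjusted p = 0.00501). Atp5g1, a c-ring gene, was at 3.78, 3.82 and 2.81 FPKM in males and at 4.28, 4.29 and 2.38 FPKM in females (-0.68, SE 0.14, adjusted p = 0.0189), nearly level before tumour.

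Members placed with complex V by symbol and without a call were Atp5l, Atp5s and Atp5sl. RefSeq names Atp5s and Atp5sl as Dmac2l and Dmac2, and both were classed here as associated genes, not as structural subunits. Atp5l, subunit g, was at 3.59, 2.56 and 2.66 FPKM in males and at 2.99, 3.90 and 2.97 FPKM in females (-0.19, SE 0.35, adjusted p = 0.755). Its transcript has 9 near-identical copies elsewhere in the GENCODE vM21 transcripts (at least 95% identity over at least 50% of the shorter), so its reads may be split and its level is uncertain. Such copies exist for 23 members, Atp5h and Cox7a2l among them. Of the 56 members without a copy 42 were lower in tumour than in normal liver, with a median of -0.69, and of the 23 with a copy 14 were lower, with a median of -0.68.

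Against precancerous tissue, tumour was lower for 24 of 79 members and higher for 0 (edgeR), beside 12.1% of tested genes lower and 13.8% higher. DESeq2 gave 29 lower and 0 higher. The median log2 fold change was -0.43 over members and 0.03 over all tested genes. Lower calls numbered 10 of 36 in complex I, 3 of 4 in complex II, 4 of 9 in complex III, 2 of 14 in complex IV and 5 of 16 in complex V, with medians of -0.35, -0.72, -0.55, -0.31 and -0.56. Complex II, with Sdha, Sdhb and Sdhd called, had the lowest median, and complex IV, with Cox7b and Cox5a called, the highest. The lowest adjusted p belonged to Atp5h (-0.76, SE 0.13, adjusted p = 0.0148), followed by Cyc1. In both sexes 66 members were lower in tumour than in precancerous tissue, beside 34.5% of tested genes. The count of called members was 16 without the male tumour library, 1 without the female tumour, 1 without the female precancerous library, 0 without the male precancerous library and 0 with no sex term.

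Between precancerous and normal liver 0 of 79 members were called in either direction by edgeR, and 0 by DESeq2, while 15 (19%) had an unadjusted p under 0.05, beside 15.8% of all tested genes. Adjusted calls were rare in this comparison, at 0.149% of tested genes lower and 0.105% higher. The median log2 fold change was -0.26 over members and -0.01 over all tested genes. In both sexes 59 members were lower in precancerous than in normal liver, beside 32.8% of tested genes. By sex, the median member difference on the log2(FPKM + 1) scale was -0.13 in males and -0.35 in females, and for complex II it was 0.01 and -0.30. Among members Atp5e, the epsilon subunit, had the largest reduction, with a change of -0.49 (SE 0.16, adjusted p = 0.265). The 3 tissue comparisons share libraries, so their values stand side by side here and are not independent of each other.

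The male and female libraries differed in level as well. Age and total counts differed too, so effects of sex, of age and of the libraries themselves cannot be told apart. Male libraries were higher for 35 of 79 members and lower for 7 (edgeR), beside 19.1% of tested genes higher and 18.2% lower. Without the male precancerous library the counts were 13 higher and 0 lower, and without the female precancerous library 17 and 0. Lower calls numbered 2 without the male normal library and 2 without the female normal library. The median log2 fold change was 0.30 over members and -0.01 over all tested genes. In all 3 tissues 51 members were higher in males, beside 39.7% of tested genes. Atp5k, subunit e, was at 67.3, 62.2 and 41.2 FPKM in males and at 7.94, 7.08 and 4.48 FPKM in females (3.05, SE 0.10, adjusted p = 0.000329). Ndufa1, a small membrane-arm subunit, was at 113, 82.1 and 86.1 FPKM in males and at 21.8, 20.6 and 17.9 FPKM in females (2.12, SE 0.11, adjusted p = 0.00103). No female library reached the lowest male library for either gene. The 7 members lower in males were Ndufa10, Ndufs7, Uqcrc1, Uqcrq, Cox8a, Atp5d and Atp5sl.

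This difference moved with transcript length. Genes outside the family with a principal transcript of up to 500 bases had a median male against female log2 fold change of 1.12, those of 500 to 700 bases 0.66, those of 700 to 1000 bases 0.19 and those of 1000 to 1500 bases -0.05. Members in the same ranges had medians of 1.21, 0.55, 0.46 and 0.18. The members are short, with a median principal transcript of 908 bases beside 2690 for tested genes, and Spearman's rho between length and the male against female change was -0.40 across the 79 genes, which are not independent replicates. With an offset per library smoothed on transcript length, a setting chosen after seeing the data, 26 members were higher and 14 lower, and the median was 0.13. The medians of complexes III and IV then fell below 0, at -0.08 and -0.15. Between tumour and normal liver rho was -0.07 across the members. Over all tested genes rho was 0.13 there and -0.05 for male against female. Genes outside the family of up to 500 bases had a median of -0.18 between tumour and normal liver. With the same offset 51 members were lower in tumour than in normal liver and 1 higher, with a median of -0.58.

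**Figure D4:**
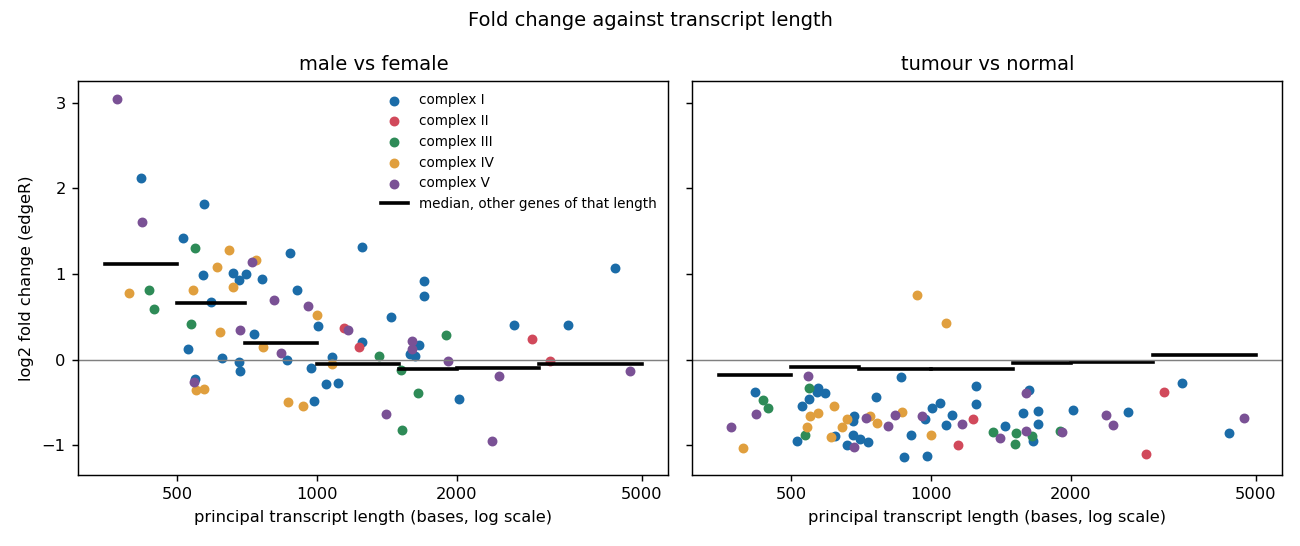
Log2 fold change (y axis) against principal transcript length in bases (x axis, log scale) for male against female (left) and tumour against normal liver (right); points are members by complex and black bars are medians of other tested genes in each length range. On the left the bars fall from 1.12 to -0.05 at 1000 to 1500 bases and the short members lie highest. On the right the bars range from -0.18 for the shortest genes to 0.05 at 3000 to 5000 bases, the longest range drawn. Genes above 5000 bases, which include no member, had a median of 0.11 there and are not drawn. All members but Cox7a2l and Ndufa4l2 lie below 0 on the right.

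The mitochondrial DNA encodes the remaining subunits. Its transcripts took 4.80%, 3.10% and 1.91% of counts in male normal, precancerous and tumour liver and 7.31%, 5.92% and 3.79% in females. Of 11 such genes tested 5 were lower in tumour than in normal liver and 0 higher (edgeR), beside 16.1% of tested genes lower. Against precancerous tissue 1 was lower in tumour, beside 12.1% of tested genes. That gene was mt-Cytb of complex III, which was at 9201, 6467 and 3304 FPKM in males and at 7798, 5741 and 3441 FPKM in females. Its change between tumour and normal liver was -1.36 (SE 0.21, edgeR adjusted p = 0.00819). Several others cannot be compared between the sexes: mt-Co1 was listed at 0 in all male libraries and mt-Nd4l at 0 in all female ones. For a gene at 0 throughout 1 sex, any tissue comparison rests on the other sex alone.

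Genes that build the complexes were mixed. Of 14 complex I assembly factors 7 were lower and 0 higher in tumour than in normal liver, among them Ecsit (-1.05, adjusted p = 0.00379) and Ndufaf1 (-1.03, adjusted p = 0.00457). Lower calls numbered 0 of 4 for complex II and 3 of 6 for complex III. For complex IV they numbered 4 of 21 and for complex V 1 of 3. Over all tested genes 16.1% were lower. Surf1, which helps build complex IV, had a change of -0.79 (adjusted p = 0.00879). Atpif1, the inhibitor of ATP hydrolysis by complex V, rose: it was at 4.68, 5.90 and 13.9 FPKM in males and at 8.30, 6.55 and 16.0 FPKM in females (1.16, SE 0.20, adjusted p = 0.0122). Its tumour libraries were above all others, opposite to the subunits of the enzyme it binds.

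Genes that feed electrons to the chain were also lower in tumour than in normal liver. Of 18 genes of the tricarboxylic acid cycle and pyruvate dehydrogenase 12 were lower and 0 higher, among them citrate synthase, Cs (-0.91, adjusted p = 0.00645), and Idh3a (-0.90, adjusted p = 0.00512). Of 14 genes for coenzyme Q synthesis, electron transfer flavoprotein and cytochrome c 9 were lower and 0 higher. Etfdh, which passes electrons from fatty acid oxidation to coenzyme Q, was at 31.6, 16.7 and 9.32 FPKM in males and at 30.1, 18.3 and 8.63 FPKM in females (-1.81, SE 0.14, adjusted p = 0.00179). Cycs, somatic cytochrome c, had a change of -0.63 that did not pass (adjusted p = 0.146). Carriers and outer membrane genes had 3 of 18 lower, a share near the 16.1% of all tested genes, and 0 higher. Cristae and fusion genes had 7 of 9 lower, among them Opa1 (-0.69, adjusted p = 0.00955), and 1 higher, Tspo.

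Between normal liver and tumour 3 of 6 uncoupling and redox genes rose and 2 fell, beside 17.3% and 16.1% of tested genes. Ucp2, an uncoupling protein relative, was at 2.02, 2.84 and 11.01 FPKM in males and at 6.48, 7.64 and 20.04 FPKM in females (1.98, SE 0.21, adjusted p = 0.00336). The peroxide-removing enzymes Gpx4 (0.76, adjusted p = 0.00874) and Prdx3 (0.64, adjusted p = 0.0228) rose, while Sod2, the matrix superoxide dismutase, fell by 1.12 on the log2 scale (adjusted p = 0.00396). Nnt, a proton-driven transhydrogenase, was at 14.2, 6.72 and 7.68 FPKM in males and at 16.4, 6.43 and 6.01 FPKM in females (-1.21, adjusted p = 0.00577). The transgenic libraries were alike for Nnt and the wild-type ones stood apart.

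Of 12 regulators of mitochondrial biogenesis 2 were lower in tumour than in normal liver, a share near the 16.1% of all tested genes, and 0 were higher. The 2 lower genes were Gabpa, an ETS factor known to drive many of these promoters (-0.45, SE 0.10, adjusted p = 0.0251), and Polg2, a subunit of the mitochondrial DNA polymerase (-0.93, adjusted p = 0.0441). The coactivator Ppargc1a was at 1.94, 2.02 and 0.647 FPKM in males and at 2.95, 1.92 and 2.005 FPKM in females (-0.92, SE 0.39, adjusted p = 0.130). Tfam had a change of -0.38 (adjusted p = 0.0526), Esrra of -0.10 (adjusted p = 0.648) and Yy1 of 0.02 (adjusted p = 0.909). Nrf1 itself was below the FPKM threshold, at 0.527 to 0.684 FPKM in the 6 libraries. Of the members with the nuclear respiratory factor 1 core in their promoter 12 of 16 were lower in tumour than in normal liver, with a median of -0.69, and of those without it 35 of 50, with a median of -0.67. The difference was not tested. No list of assembly, cycle, carrier or regulatory genes had a call between precancerous and normal liver. Calls were rare in that comparison, at 0.149% of all tested genes lower and 0.105% higher, so lists this short would seldom hold one.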

How the data were processed

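Raw counts and FPKM per gene for 6 mouse liver libraries were used as the authors deposited them in 1 table. The submitters' processing notes name TopHat2 2.0.9, Cuffdiff and GRCm38. The labels' protocols name a stranded library kit. How counting used strand is not stated in those sources, and 17 members share over 5% of their exons with a gene on the other strand (of the other 62, 42 were lower in tumour than in normal liver). The deposited FPKM equal count over length and library total. The lengths exceed the merged exons by over 1.1 times for 53 members, so levels are compared between libraries, not between genes. No column of per-sample values was left unused (0 columns).

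Counts were tested with edgeR 4.0.16 (R 4.3.3), by quasi-likelihood with TMM scaling, terms for sex and tissue and Benjamini-Hochberg adjustment over 11435 genes, those with 1 FPKM or more in 2 or more libraries. A call is an adjusted p under 0.05. The SE given with an edgeR fold change is its absolute log2 value divided by the square root of the test's F statistic. The model leaves few residual degrees of freedom, with 1 library per group. On simulated counts for tumour against precancerous tissue over 11435 genes it recovered 51.7% of the 2-fold changes and 90% of the 4-fold ones. Alternatives were DESeq2 1.42.0, limma 3.58.1 on log2(FPKM + 1) and log2(FPKM + 0.1), other scalings and filters, no sex term, each library left out, and a length offset. Near copies were found with blastn 2.17.0. Transcript lengths are from GENCODE vM21.

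Members, lists and tests were chosen with earlier results of these data known. Named are the called members of lowest adjusted p in each complex, those against their complex, those of highest or lowest mean deposited FPKM (a rank that depends on the lengths), complex II, tissue isoforms, members near the threshold, and called genes of the lists. Further members were named after their values were seen: Ndufa8, Ndufab1, Ndufs5, Uqcrh, Cox4i1, Atp5a1, Atp5e and Atp5g1. The values of 1 member are not reported here.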

Additional observations from a re-analysis of the deposited data

Results flagged for a closer look

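The sexes went opposite ways between precancerous and normal liver for 2 of 79 members, each by at least 1.2-fold on the log2(FPKM + 1) scale, a pattern met by 1.92% of tested genes. Ndufa4 differed by 0.443 in males and by -0.612 in females. Atp5l, which has 9 near-identical copies, differed by -0.368 in males and by 0.296 in females, on 11 and 9 counts in male normal and precancerous liver and 27 and 30 counts in the female libraries, and counting error at this depth was not separated from it. Each value rests on 1 library per group, and the difference between the sexes was not tested. No member showed this pattern between tumour and precancerous tissue or between tumour and normal liver (0 of 79 in each).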

How the results depend on the processing

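No called member changed direction in a tissue comparison under any setting. Without a sex term the counts between tumour and normal liver were 0 lower and 0 higher, and between tumour and precancerous tissue 0 lower. The higher call, Cox7a2l, was also absent without a filter (0), and with structural subunits only (0), which leaves that gene out. With 1 library left out at a time, lower calls ranged from 0 to 32 for tumour against precancerous tissue and from 15 to 50 for tumour against normal liver, with higher calls from 0 to 0. The lone library left in an arm is then assumed to vary like the others.

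The tumour against precancerous median differed between the sexes by an SD of only 0.00154, so every setting moved it by more than that: -0.451 with DESeq2, -0.447 with its size factors in edgeR, -0.40 with library totals, -0.432 with scaling without mitochondrial and top genes, -0.456 with filterByExpr, -0.477 with no filter, -0.376 and -0.397 with limma at pseudocounts of 1 and 0.1, -0.44 with no sex term and -0.404 with the length offset. All these shifts were below the members' median SE of 0.142. Leaving out a library gave -0.543 to -0.374, and for tumour against normal liver -0.811 to -0.568.

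For male against female, lower calls were 4 with library totals and with both limma fits and 14 with the length offset. That offset gave medians of 0.132 over members, -0.082 for complex III and -0.145 for complex IV, and turned Uqcr10 (-0.082), Uqcr11 (-0.279), Atp5h (-0.123) and Cox6b1 (-0.239). Without 1 library, higher calls ranged from 13 to 31 and lower calls from 0 to 6, and the counts were 13 and 0 without the male precancerous library. The cause of these shifts was not tested. No analysis paired by mouse was possible, since the labels do not say if tumour and precancerous tissue came from the same mouse. With 1 library per sex and tissue, the sex term takes the place of a block.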
